A study of Saccharomyces cerevisiae with 13 samples.

Results

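The 38 nuclear genes described here encode subunits of the budding yeast respiratory chain and of the mitochondrial ATP synthase. They were chosen by a rule that goes by systematic name and uses no measured value, and are 38 of the 5681 genes listed in the tables of reads per gene. The list holds 11 genes of ATP synthase (complex V), 9 of cytochrome c oxidase (complex IV), 9 of ubiquinol-cytochrome c reductase (complex III), 2 of cytochrome c, 4 of succinate dehydrogenase (complex II) and 3 of the single-subunit NADH dehydrogenases. The 7 subunits encoded in mitochondrial DNA were not analysed here. With their systematic names, the genes of complex V are ATP1 (YBL099W), ATP2 (YJR121W), ATP3 (YBR039W), ATP4 (YPL078C), ATP5 (YDR298C), ATP7 (YKL016C), ATP14 (YLR295C), ATP15 (YPL271W), ATP16 (YDL004W), ATP17 (YDR377W) and ATP20 (YPR020W). Those of complex IV are COX4 (YGL187C), COX5A (YNL052W), COX5B (YIL111W), COX6 (YHR051W), COX7 (YMR256C), COX8 (YLR395C), COX9 (YDL067C), COX12 (YLR038C) and COX13 (YGL191W), and those of complex III are COR1 (YBL045C), CYT1 (YOR065W), RIP1 (YEL024W), QCR2 (YPR191W), QCR6 (YFR033C), QCR7 (YDR529C), QCR8 (YJL166W), QCR9 (YGR183C) and QCR10 (YHR001W-A). The others are CYC1 (YJR048W) and CYC7 (YEL039C) for cytochrome c, SDH1 (YKL148C), SDH2 (YLL041C), SDH3 (YKL141W) and SDH4 (YDR178W) for complex II, and NDI1 (YML120C), NDE1 (YMR145C) and NDE2 (YDL085W) for the NADH dehydrogenases.

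The study sequenced mRNA fragments that stayed protected by a pair of stacked ribosomes (disome-seq, fragments of 55 to 65 nt), by single ribosomes (monosome-seq, 20 to 30 nt) or that came from fragmented mRNA (mRNA-seq, 28 to 29 nt), in order to find where ribosomes collide. Each assay has 2 replicate libraries from cells labelled S288C and grown at 30 °C in synthetic medium without histidine and with 100 mM 3-AT, an inhibitor of the histidine synthesis enzyme encoded by HIS3, and 2 replicate libraries from cells labelled BY4742 (MATα his3Δ1 leu2Δ0 lys2Δ0 and ura3Δ0, the last spelled uraΔ0 in the labels) that grew in YPD, a rich medium with dextrose, at 30 °C as well. One further library, labelled BY4742 in rich medium, holds fragments of 28 to 29 nt from transcripts that carried 2 ribosomes before nuclease digestion, and served the study as a negative control for disome-seq. The strain, the medium and 3-AT change together between the growth conditions and cannot be told apart, and cycloheximide was in the lysis buffer of every ribosome sample.

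The respiratory chain passes electrons from NADH and succinate through ubiquinone, complex III, cytochrome c and complex IV to oxygen, and complexes III and IV pump the protons that ATP synthase uses to make ATP. Budding yeast has no proton-pumping complex I and oxidises NADH with Ndi1 inside the mitochondrial matrix and with Nde1 and Nde2 on the outer face of the inner membrane. Yeast growing on glucose ferments and keeps many of these genes low, and the CCAAT-binding HAP complex is a known activator of many of them when glucose runs short.

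Disome-seq was the shallowest assay, with 18790 to 47391 reads per library, against 230583 to 800994 reads for monosome-seq and 544499 to 2836320 reads for mRNA-seq. Levels are given below as raw reads or as RPM, the reads of a gene scaled by the total of its library. The median member had 2 or 3 reads in a disome library, 33 to 46 in a monosome library and 83.5 to 194.5 in an mRNA library, so single-gene values in disome-seq rest on few reads. Intervals given for the control library cover counting error only. Marker genes went against some of the strain labels. LYS2 and LEU2 had 0 reads in the 12 disome, monosome and mRNA libraries, those labelled S288C included, which allows up to 3 reads per library. URA3, deleted in BY4742 by its genotype, had 22 and 14 mRNA reads in the libraries labelled S288C, against 138 and 181 in those labelled BY4742. In the control library, LYS2 had 62 footprints, the a-type receptor gene STE2 had 47 and the α-factor gene MFALPHA1 had 0, whereas MFALPHA1 had 2941 and 3752 reads in the rich-medium mRNA libraries. The part of the strain in the results below was not tested.

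The bases before the start codon of most members held CCAAT, the motif of the HAP complex. CCAAT was searched on both strands in the 300 bases before the start codon, in the RefSeq sequence of build R64. A match was present before 32 of the 38 members (84.2%), against 42.1% of 5676 genes. The share was 11 of 11 for complex V, 4 of 4 for complex II, 8 of 9 for complex IV, 7 of 9 for complex III and 2 of 3 for the NADH dehydrogenases, while neither CYC1 nor CYC7 had these letters in the window. Assembly factors, fixed as a separate list, held it before 15 of 35 genes (42.9%), a share near that of all genes. Carriers, porin and electron donors held it before 7 of 8 genes (87.5%), so a high share is not particular to the members. It stood before 6 of 8 haem synthesis genes, 6 of 9 ubiquinone synthesis genes and 6 of 10 other subunits, inhibitors and paralogs. Regulators of respiration held it before 2 of 7. The members had 50 matches, 34 on the coding strand and 16 on the other, between 9 and 293 bases before the start codon with a median of 192; in ATP2 and in SDH2 a pair of matches overlap. A match describes these letters and is no evidence of binding. NDE2 and CYC7, with the largest mRNA increases in 3-AT, had no match, and NDE1, whose mRNA was lower, had 3. The windows of 25 bases below were picked from the members whose mRNA rose with 3-AT and show 8 of them from 4 complexes, with the match in capitals (ATTGG is the motif on the other strand), read 5′ to 3′ on the coding strand of each gene.
ATP20, 169 bases before its start codon, XVI:599691-599715, plus strand: cttattcctgATTGGctgaaagaaa
ATP17, 229 bases before, IV:1228372-1228396, plus strand: acggagagaaCCAATcatatcgaag
COX7, 162 bases before, XIII:779275-779299, minus strand: gcagtacttgATTGGctacgccgcg
COX9, 147 bases before, IV:334529-334553, minus strand: ctgcaacctgATTGGcccgctacca
QCR7, 181 bases before, IV:1496715-1496739, minus strand: cttgttttgaCCAATcaggagcgac
QCR9, 207 bases before, VII:859669-859693, minus strand: tatacacgacCCAATcaaacgcggg
QCR2, 185 bases before, XVI:919186-919210, plus strand: tcccaacgaaCCAATagaaggcccg
SDH4, 233 bases before, IV:817707-817731, plus strand: aagcattgagCCAATcgctgctgtt

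**Figure D1:**
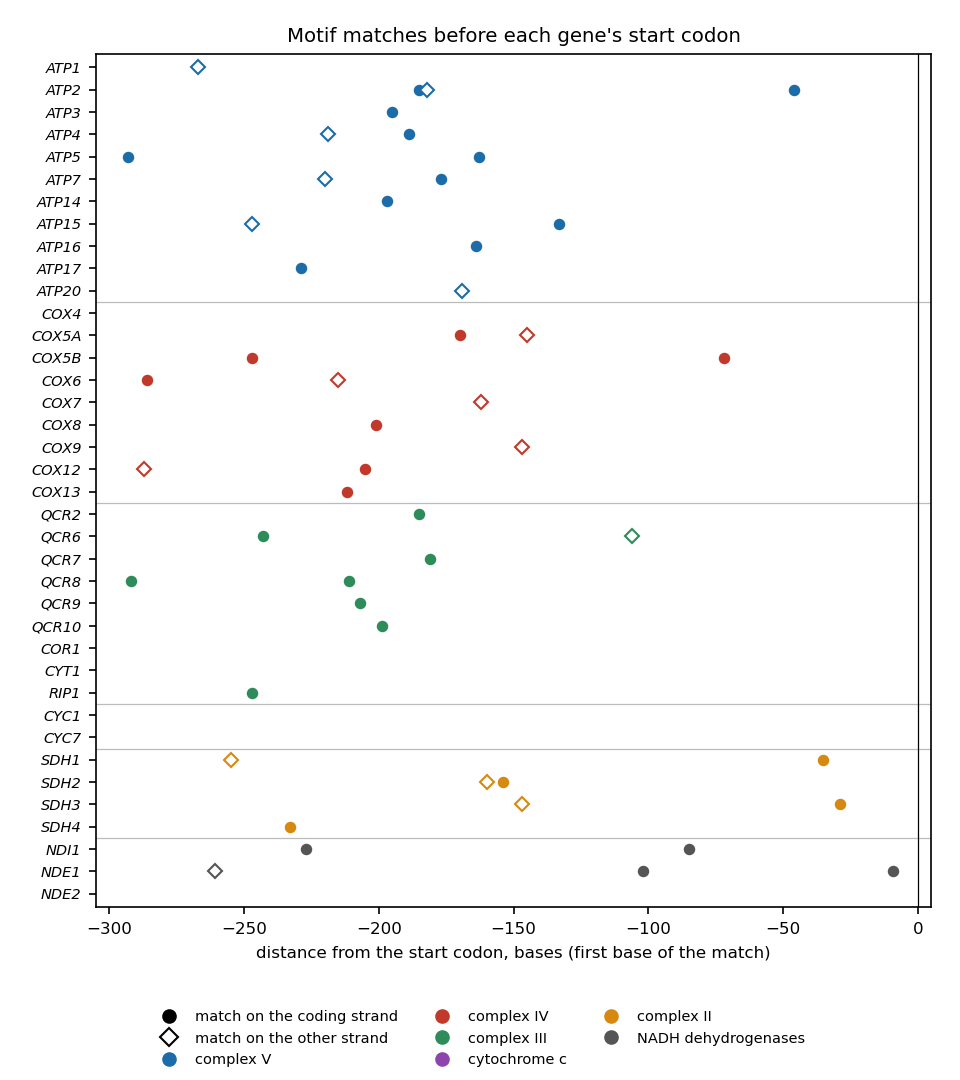
Position of each CCAAT match in the 300 bases before the start codon, with 1 row per gene and colour by complex. Filled circles are matches on the coding strand and open diamonds matches on the other strand; the median distance of the 50 matches is 192 bases, and COX4, COR1, CYT1, CYC1, CYC7 and NDE2 have none.

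3-AT limits histidine, so the histidine codons of the members (CAC and CAT) were located in the same reference. The median member had 1.68 histidine codons per 100 codons, against 2.05 over 5676 genes. ATP17 had 5.94 and COX13 had 5.43, above the 95th percentile of all genes (3.94), as were QCR6 (4.76) and SDH1 (4.06), while ATP15 had none. The last sense codon was histidine in COX4, where the last 3 codons are histidine, and in ATP14, ATP17 and ATP20. The last 60 bases of these 4 genes, stop codon included, and a stretch of COX13 that holds 4 of its 7 histidine codons are shown with the histidine codons in capitals.
COX4, codons 137 to 156, VII:149704-149763, minus strand: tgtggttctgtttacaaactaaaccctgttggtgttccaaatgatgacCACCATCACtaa
ATP14, codons 106 to 125, XII:721999-722058, minus strand: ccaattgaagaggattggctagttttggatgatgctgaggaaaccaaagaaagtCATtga
ATP17, codons 83 to 102, IV:1228857-1228916, plus strand: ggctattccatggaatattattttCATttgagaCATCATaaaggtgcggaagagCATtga
ATP20, codons 97 to 116, XVI:600158-600217, plus strand: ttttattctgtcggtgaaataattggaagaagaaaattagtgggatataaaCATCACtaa
COX13, codons 72 to 91, VII:145021-145080, plus strand: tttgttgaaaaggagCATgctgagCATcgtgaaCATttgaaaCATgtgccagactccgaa

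The respiratory genes took up a larger part of each assay in 3-AT. Their share of all reads was 0.835% and 0.837% in the 3-AT mRNA libraries, against 0.425% and 0.427% in rich medium. In monosome-seq it was 0.938% and 0.862% in 3-AT, against 0.345% and 0.372% in rich medium, and in disome-seq it was 1.12% and 1.01% in 3-AT, against 0.384% and 0.380% in rich medium. Both 3-AT libraries lay above both rich-medium libraries in each assay. By summed RPM, complex III had 2420 and 2512 in 3-AT mRNA-seq against 879.6 and 850.4 in rich medium, and complex V had 3671 and 3620 in 3-AT against 2147 and 2167 in rich medium. Shares and RPM are relative to all reads of a library and give no absolute amounts. In these bulk cultures, more transcript per cell, more cells that carry it and fewer transcripts of other genes cannot be told apart.

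The comparison of mRNA between the growth conditions asks which transcripts changed in abundance. In edgeR's quasi-likelihood test, 27 of the 38 members were higher in 3-AT and 3 were lower at an adjusted p below 0.05, while of the 5290 genes tested 37.7% were higher and 37.7% lower (75.4% in either direction). DESeq2 called 22 of the members higher and 2 lower. The median log2 fold change was 0.63 over the members and 0.01 over all genes. Fold changes use TMM factors and so differ from ratios of RPM; with table totals in their place the median of all genes shifted by 0.32. In complex III 8 of 9 genes were higher, with a median log2 fold change of 1.09, and the 4 genes of complex II were all higher, with a median of 0.86. In complex V 8 of 11 genes were higher, with a smaller median of 0.41, and in complex IV 5 of 9 were higher and 1 was lower.

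NDE2, one of the paralogs for the external NADH dehydrogenase, had 34.4 and 51.4 RPM in the 3-AT mRNA libraries, against 2.66 and 3.88 in rich medium, a log2 fold change of 3.28 ± 0.36 (SE, adjusted p = 5.5e-15). Its paralog NDE1 went the other way, with 193 and 139.6 RPM in 3-AT against 301 and 275.4 in rich medium (-1.07 ± 0.11, adjusted p = 7.2e-17). With similar coding lengths (1638 nt for NDE2 and 1683 nt for NDE1), NDE1 had the higher RPM of the pair in every mRNA library, and its groups did not overlap. NDE2 passed the filter on low counts only through the 3-AT libraries, where it is high, so the separation of its groups was fixed in advance. NDI1, for the internal enzyme, had 92.6 and 77.1 in 3-AT against 59.4 and 57.5 RPM in rich medium and did not pass the test (adjusted p = 0.16).

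Cytochrome c, the soluble electron carrier between complexes III and IV, also changed in opposite directions by paralog. CYC7, for the isoform known from low oxygen, had 30.9 and 47.8 RPM in 3-AT against 3.1 and 3.53 in rich medium (3.14 ± 0.37, adjusted p = 1.3e-13). It passed the filter on low counts only through the 3-AT libraries, where it is high. CYC1, for the isoform that predominates in aerobic cells, had 20.2 and 16.5 in 3-AT against 39.9 and 44.1 in rich medium (-1.49 ± 0.27, adjusted p = 3.5e-07). With coding lengths of 342 nt for CYC7 and 330 nt for CYC1, CYC7 lay above CYC1 by RPM in both 3-AT libraries and below it in both rich-medium libraries. Of the 28-nt windows of these coding sequences, 97.4% in CYC1 and 97.5% in CYC7 occur once in the coding sequences of the genome, so few reads could be shared between them.

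Complex IV carries the third paralog pair, the subunit 5 isoforms, of which COX5B is the one known from low oxygen. COX5B had 154 and 156 RPM in 3-AT, against 48.3 and 47.2 in rich medium (1.38 ± 0.14, adjusted p = 4.4e-16), and COX5A had 112 and 112 in 3-AT against 101 and 116 in rich medium (-0.28 ± 0.14, adjusted p = 0.062). By RPM, and with coding lengths of 456 nt for COX5B and 462 nt for COX5A, COX5B lay above COX5A in both 3-AT libraries and below it in both rich-medium libraries. Among the small subunits of the enzyme, COX7 had 53.4 and 62.4 RPM in 3-AT against 12.9 and 9.52 in rich medium (2.05 ± 0.26, adjusted p = 2.6e-12) and COX9 had 262 and 288.3 in 3-AT against 66.5 and 66.3 in rich medium (1.72 ± 0.12, adjusted p = 4.7e-27). COX13 (1.02) and COX6 (0.74) were also higher. COX8 was lower, with 16.6 and 18.4 in 3-AT against 23.9 and 28.9 RPM in rich medium (-0.94 ± 0.30, adjusted p = 0.0035). The call was lost without replicate 1 of 3-AT mRNA-seq (log2 fold change -0.85), with table totals alone and by DESeq2.

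In complex III, QCR7 and QCR8, small subunits near cytochrome b, had the largest changes. QCR7 had 301 and 336 RPM in 3-AT, against 74 and 77.6 in rich medium (1.74 ± 0.12, adjusted p = 1.9e-29), and QCR8 had 169.7 and 180.0 in 3-AT against 42.5 and 44.4 in rich medium (1.67 ± 0.14, adjusted p = 2.2e-21). QCR9 had 376 and 339.8 in 3-AT against 106 and 101 in rich medium (1.48 ± 0.11, adjusted p = 5e-27). The core proteins QCR2 (1.43) and COR1 (1.09) and cytochrome c1, CYT1 (1.09), rose by similar amounts, and the Rieske iron-sulphur protein RIP1 (0.60) and QCR6 (0.40) by less. QCR10 was the member of the complex that missed the threshold (0.48 ± 0.30, adjusted p = 0.13). In complex II the iron-sulphur protein SDH2 (1.29) and the membrane anchor SDH4 (1.36) rose more than the flavoprotein SDH1 (0.42) and the other anchor SDH3 (0.43), differences between genes that were not tested. In complex V, ATP20, for a subunit known from the dimer of the synthase, stood apart with 158 and 151 RPM in 3-AT against 28.8 and 25.0 in rich medium (2.21 ± 0.16, adjusted p = 2.7e-26). The catalytic core subunits ATP1 (0.67) and ATP2 (0.29) rose by less, ATP17, ATP7, ATP15, ATP5 and ATP16 rose by between 0.28 and 0.72, while the rotor subunit ATP3, the stator subunit ATP4 and ATP14 did not pass the test (log2 fold changes of -0.05, 0.15 and 0.19).

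When each mRNA library was left out in turn, 24 of the 30 calls held in all 4 fits. Without replicate 2 of the 3-AT group, ATP16 (0.18), RIP1 (0.44), SDH1 (0.37) and ATP15 (0.29) were no longer called, and SDH3 was lost without replicate 1 of either group (0.11 without the 3-AT library and 0.34 without the rich-medium library).

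**Figure D2:**
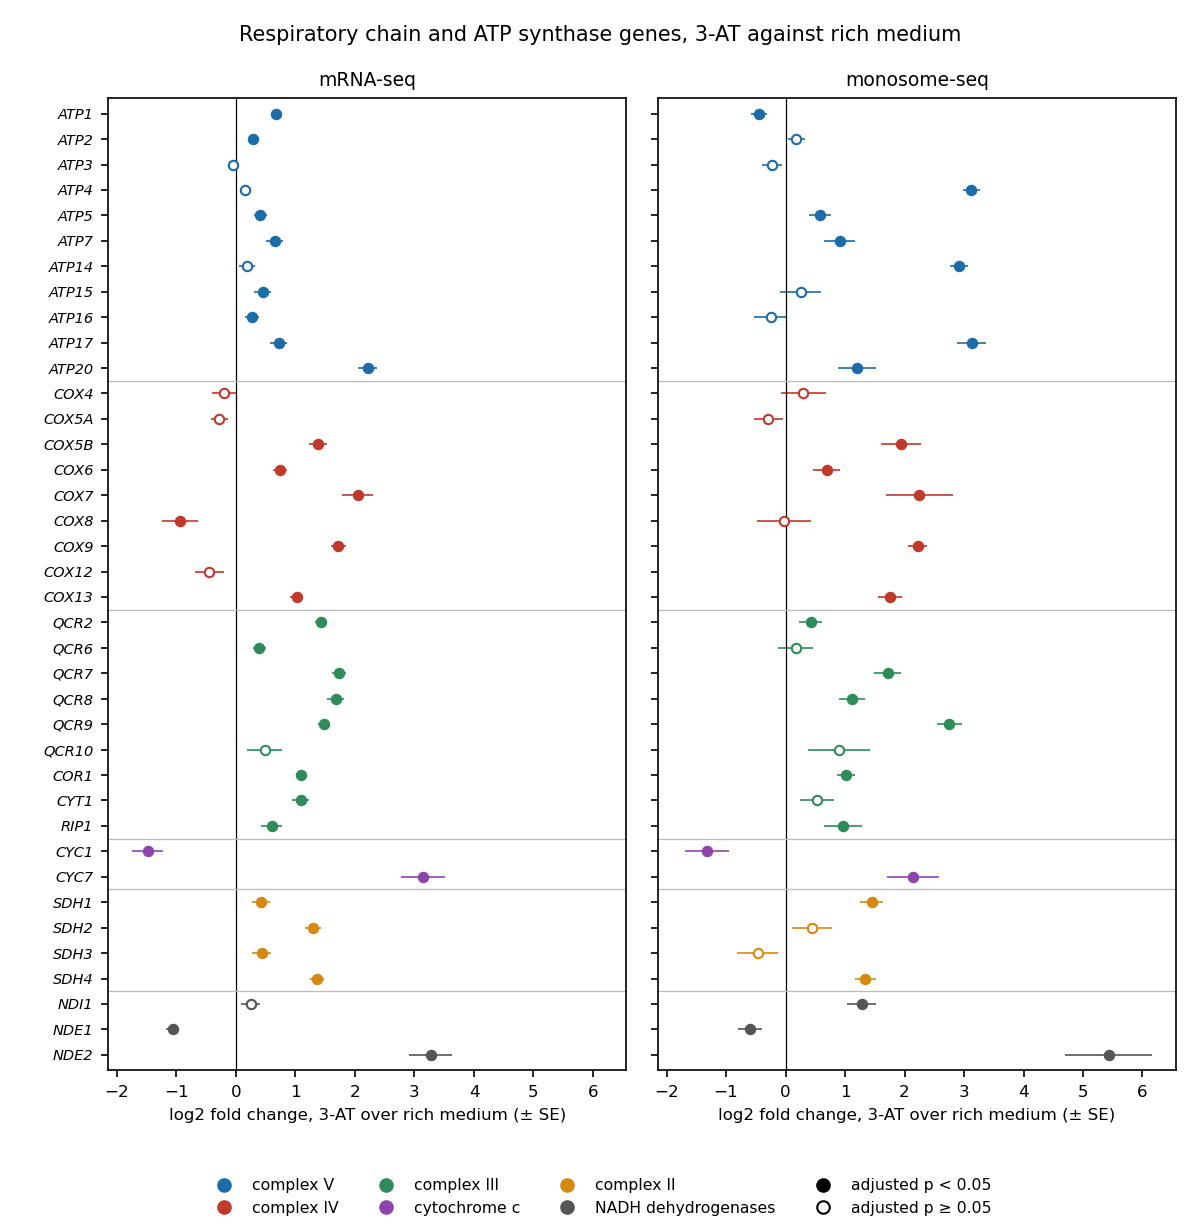
Log2 fold change of 3-AT over rich medium in mRNA-seq (left) and monosome-seq (right) for each member, with bars for 1 SE, 2 libraries per group and filled points where the adjusted p was below 0.05. Most points lie right of 0 in both panels, CYC1 and NDE1 lie left in both, and ATP4, ATP14 and ATP17 lie near 3 in monosome-seq but below 1 in mRNA-seq; COX12 was tested in mRNA-seq only.

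For genes that work with these complexes, the shares of all genes called in mRNA-seq were the same 37.7% in each direction. Of 9 tested genes for other subunits, inhibitors and paralogs, 6 rose, among them STF1 (2.1), a stabiliser of the inhibited ATP synthase, and the succinate dehydrogenase paralog SHH4 (2.53). Of 35 assembly factors 12 were higher and 9 lower, shares no larger than those of all genes. Of 7 regulators, HAP1 (1.23), HAP2 (1.18), HAP5 (0.79) and HAP3 (0.54) rose and the repressor ROX1 fell by 0.60, and HAP4, for the activating subunit of the HAP complex, did not pass the test (-0.07). Of 8 carriers and donors 5 rose, including the porin POR1 (1.38), and 2 fell, including the ADP/ATP carrier gene PET9 (-0.89). Of 8 haem synthesis genes 2 rose and 4 fell, and of 9 ubiquinone synthesis genes 3 rose and 2 fell.

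Monosome footprints, which count single ribosomes on the mRNA, changed for many of the same complexes. Of the 37 members tested, 22 were higher in 3-AT and 3 lower, against 33.8% higher and 31.7% lower over 4169 genes (65.6% in all), and the median log2 fold change was 0.91 for the members and 0.03 for all genes. COX12, with 2 and 3 reads in 3-AT and 13 and 18 in rich medium, missed the filter on low counts. NDE2, COX7, CYC7 and COX5B, all counted as higher, passed it only through the 3-AT libraries, where they are high. CYC1, counted as lower, passed it only through the rich-medium libraries, where it is high. The calls of these genes are no support for a direction of the members. The largest change was that of NDE2, with 11 and 14 reads in 3-AT (41.1 and 60.7 RPM) against 1 and 0 reads in rich medium, a ratio of 70.6 with a 95% counting interval of 11.6 to 2899 (adjusted p = 1.2e-07). NDE1 was lower, with 164 and 139 RPM in 3-AT against 171 and 209 in rich medium (-0.59 ± 0.20, adjusted p = 0.0097).

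The ATP synthase subunits ATP4 and ATP14 of the peripheral stalk and ATP17 of the membrane part had far more monosome footprints in 3-AT. ATP4 had 1105 and 1253 RPM in 3-AT, against 104 and 119 in rich medium (3.12 ± 0.14, adjusted p = 6.4e-19). ATP14 had 1198 and 919 in 3-AT against 117 and 114 in rich medium (2.91 ± 0.15, adjusted p = 4e-17), and ATP17 had 299 and 312 in 3-AT against 32.5 and 23.1 in rich medium (3.13 ± 0.24, adjusted p = 4e-13). The groups were separated by more than the spread of their replicates in each case, and the calls held with each library left out. Their mRNA differed much less, with ATP4 at 377 and 378 in 3-AT against 265 and 278 RPM in rich medium, ATP14 at 138 and 156 in 3-AT against 100.1 and 104 in rich medium, and ATP17 at 132 and 130.4 in 3-AT against 62.5 and 64.9 in rich medium. By RPM per kilobase of coding sequence, ATP14 was the highest gene of complex V in both conditions of monosome-seq, at 2824 in 3-AT and 308 in rich medium.

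**Figure D3:**
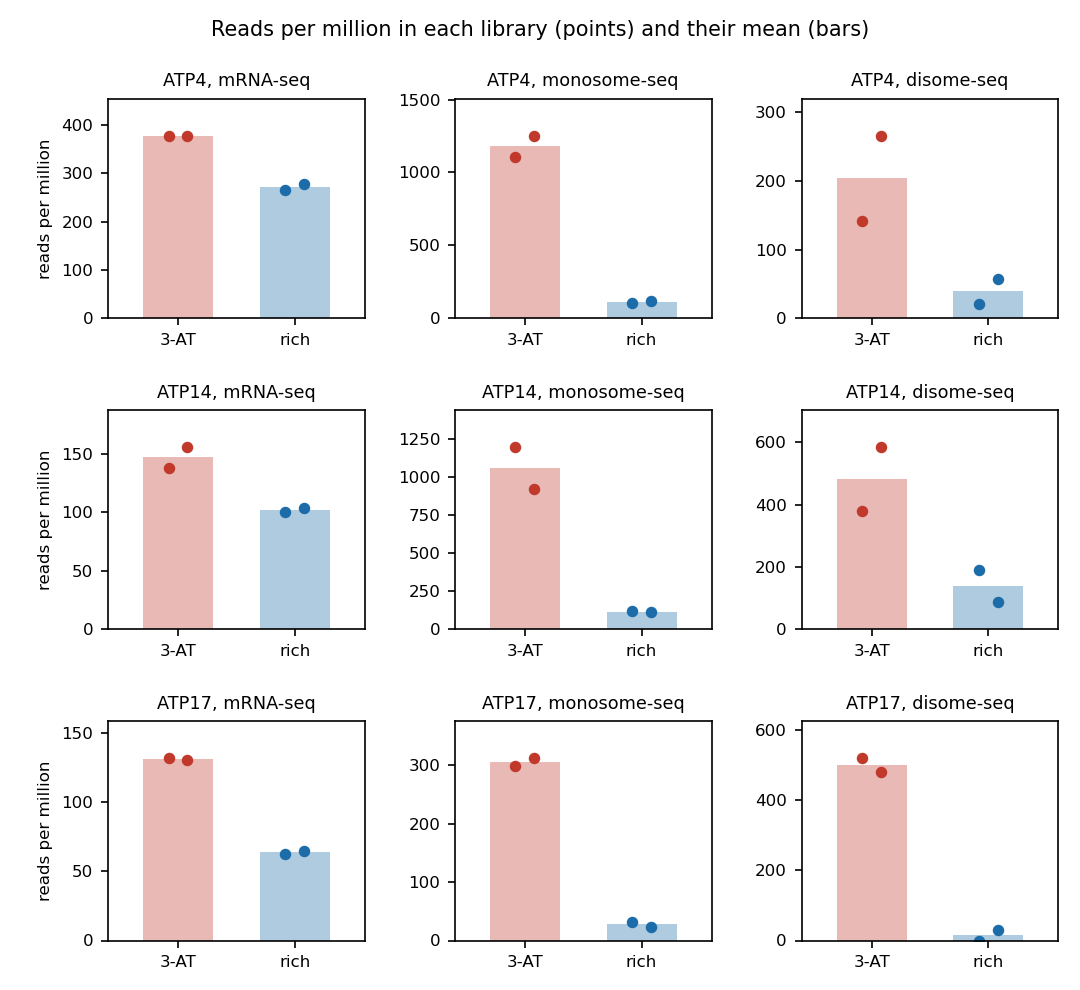
RPM of ATP4, ATP14 and ATP17 (rows) in mRNA-seq, monosome-seq and disome-seq (columns), with a point for each of 2 libraries and a bar for their mean, 3-AT left of rich medium and each vertical axis starting at 0. The 3-AT libraries lie above the rich-medium libraries in each panel, by far the most in monosome-seq and, for ATP17, in disome-seq.

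Among the other complexes, QCR9 had 504 and 343 monosome RPM in 3-AT, against 54.9 and 47.8 in rich medium (2.75 ± 0.21, adjusted p = 5e-13), COX9 had 519 and 503 in 3-AT against 83.6 and 97.2 in rich medium (2.22 ± 0.17, adjusted p = 2.4e-13) and CYC7 had 74.7 and 47.7 in 3-AT against 11.2 and 11.5 in rich medium (2.14 ± 0.44, adjusted p = 8e-05). The groups of QCR9 and COX9 did not overlap, nor did those of CYC7, for which the filter fixed this in advance. COX7, with only 10 and 7 reads in 3-AT against 6 and 2 in rich medium, had a log2 fold change of 2.25 ± 0.56 (adjusted p = 0.0008). CYC1 was lower (44.8 and 21.7 in 3-AT against 61.2 and 80.7 RPM in rich medium, -1.32 ± 0.37, adjusted p = 0.0025), as was ATP1 (426 and 408 in 3-AT against 462 and 469.6 in rich medium, -0.45 ± 0.13, adjusted p = 0.0044), the ATP synthase α subunit, whose mRNA rose. COX5B was higher (112 and 95.4 in 3-AT against 25.0 and 18.1 in rich medium, 1.95 ± 0.34, adjusted p = 7.6e-06) and COX5A missed the threshold (108 and 95.4 in 3-AT against 94.9 and 112 in rich medium, adjusted p = 0.3). COX13 (1.75), QCR7 (1.72), SDH1 (1.45), SDH4 (1.34), NDI1 (1.28), ATP20 (1.2), QCR8 (1.12) and COR1 (1.01) were also higher, and the remaining 5 calls upward were between 0.42 and 0.97.

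Of the 25 monosome calls, 14 held with each library left out. DESeq2 called 16 of the members higher and 0 lower, so the falls of CYC1, NDE1 and ATP1 rest on edgeR. With table totals alone edgeR kept the call of CYC1 but not those of NDE1 and ATP1, which rest on the scaling as well. COX7 was not called without replicate 1 of 3-AT (2.02), or without either rich-medium library (2.93 and 1.81), and CYC1 was not called without replicate 2 of 3-AT (-0.88). ATP20 was lost without replicate 2 of 3-AT (0.86) or replicate 1 of rich medium (0.87), and NDE1 without replicate 2 of either group (-0.44 without the 3-AT and -0.50 without the rich-medium library). ATP1 (-0.50) and ATP7 (0.75) were lost without replicate 1 of rich medium. ATP5, RIP1, COX6 and QCR2 were lost in 2 or more fits, with values between 0.24 and 0.76. NDE2 was not tested in 1 of the 4 fits. Among the other lists, 9 of 17 assembly factors tested were higher in monosome-seq and 1 was lower, and of 5 regulators 3 were higher, while HAP4 was lower (-2.18), beside 33.8% higher and 31.7% lower over all genes.

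The ratio of monosome footprints to mRNA, a measure of ribosomes per transcript, was compared within each condition and then between conditions. In 3-AT, 15 of 37 members tested were higher in monosome-seq than in mRNA-seq and 5 lower, against 25.3% and 26.2% of 4694 genes (51.4% in all). In rich medium 17 of 37 were higher and 4 lower, against 25.9% and 25.8% of 5099 genes (51.7% in all). These counts depend on how the libraries are scaled, since table totals alone shifted the median of all genes by -0.46 in 3-AT and -0.58 in rich medium and left 7 members higher and 13 lower in 3-AT and 6 higher and 14 lower in rich medium. In 3-AT the ratio was highest for ATP14 (3.33 ± 0.15), ATP4 (2.09 ± 0.11), SDH1 (2.05 ± 0.20), ATP17 (1.67 ± 0.16), NDI1 (1.58 ± 0.23), COX9 (1.36 ± 0.13), CYC7 (1.18 ± 0.36) and COX8 (1.14 ± 0.45), and the members called lower were QCR6 (-1.10 ± 0.22), ATP1 (-1.09 ± 0.12), SDH2 (-0.90 ± 0.25), ATP16 (-0.87 ± 0.23) and QCR2 (-0.56 ± 0.14). In rich medium it was highest for CYC7 (2.32 ± 0.56), QCR8 (1.42 ± 0.19), CYC1 (1.31 ± 0.20), SDH1 (1.18 ± 0.17), ATP20 (1.02 ± 0.26), COX9 (1.01 ± 0.17), SDH4 (0.98 ± 0.15) and ATP2 (0.77 ± 0.09), and ATP4 (-0.72 ± 0.13), QCR6 (-0.72 ± 0.17), ATP17 (-0.59 ± 0.24) and QCR9 (-0.41 ± 0.19) were called lower.

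Of the paralog pairs in these ratios, NDE2 had 0.74 ± 0.37 and NDE1 had 0.29 ± 0.22 in 3-AT, neither past the threshold, and in rich medium NDE1 had -0.03 ± 0.11 while NDE2 missed the filter. CYC1 missed the filter in 3-AT. CYC7 in rich medium and COX8 in 3-AT passed it only through monosome-seq, where they are high. COX5B had -0.11 ± 0.22 and COX5A 0.33 ± 0.23 in 3-AT, against -0.53 ± 0.27 and 0.49 ± 0.15 in rich medium, of which only the last passed (adjusted p = 0.0035). With each library left out, 12 of 20 calls held in 3-AT and 9 of 21 in rich medium. COX8 was lost without either 3-AT monosome library (1.00 and 1.32), CYC7 without replicate 1 of 3-AT monosome-seq (0.76) or mRNA-seq (0.81), and SDH2 without replicate 2 of 3-AT monosome-seq (-0.50). ATP20 was lost without replicate 2 of rich-medium monosome-seq (0.75), QCR6 without replicate 1 (-0.51) and ATP17 without replicate 2 (-0.39) or without replicate 2 of mRNA-seq (-0.56), and QCR9 was lost in 3 fits, with values between -0.53 and -0.32.

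The change of this ratio with 3-AT was tested as an interaction in one model over the 8 monosome and mRNA libraries. It was higher in 3-AT for 7 of the 38 members and lower for 5, against 16.9% and 12.1% of 5160 genes (28.9% in all), shares near those of the members. ATP4 (2.93 ± 0.17, adjusted p = 4.8e-50), ATP14 (2.69 ± 0.19, adjusted p = 2.8e-35) and ATP17 (2.37 ± 0.29, adjusted p = 5.5e-14) had the largest increases and ranked 92, 117 and 166 from the highest among all genes tested. QCR9 (1.24 ± 0.23), NDI1 (1.00 ± 0.28), SDH1 (0.99 ± 0.25) and COX13 (0.70 ± 0.23) were also higher. The ratio fell for ATP1 (-1.15 ± 0.16, adjusted p = 3.1e-11), QCR2 (-1.05 ± 0.21, adjusted p = 9.4e-06), ATP20 (-1.04 ± 0.34), SDH3 (-0.94 ± 0.36) and SDH2 (-0.89 ± 0.34). Differences between subunits of a complex were not tested. For the paralogs the change was 2.40 ± 1.26 for NDE2 and 0.44 ± 0.24 for NDE1, -1.01 ± 0.63 for CYC7 and 0.13 ± 0.49 for CYC1, and 0.53 ± 0.36 for COX5B and -0.05 ± 0.29 for COX5A, none past the threshold.

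Of these 12 calls, 6 held with each library left out: ATP4, ATP14, ATP17, QCR9, ATP1 and QCR2. SDH1 was lost without replicate 1 of 3-AT monosome-seq (0.67). NDI1 was lost without that library (0.66) or replicate 1 of rich-medium monosome-seq (0.78). ATP20 was lost without replicate 1 of 3-AT (-0.77) or replicate 2 of rich-medium monosome-seq (-0.88). SDH2 was lost in 4 of 8 fits (-0.90 to -0.51), SDH3 in 5 (-0.98 to -0.66) and COX13 in 3 (0.48 to 0.53). As a description over genes of the same libraries, Spearman's rho between the change of ratio and histidine codons per 100 codons was 0.08 over the 38 members and 0.10 over 5159 genes. For the monosome change between conditions it was 0.15 over 37 members and 0.17 over 4169 genes. The 127 tested genes that end in a histidine codon had a median change of 0.17, against 0.07 for the 5032 others.

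Disome-seq was compared with monosome-seq to ask which genes had more paired ribosomes than their single-ribosome footprints would give. In 3-AT, 28 members passed the filter, of which 6 were higher and 7 lower in disome-seq, against 11.4% higher and 20.2% lower over 2275 genes (31.6% in all), and the median log2 fold change was -0.16 for the members and -0.39 for all genes. COX4, a subunit of cytochrome c oxidase that ends in 3 histidine codons, had the highest disome-to-monosome ratio of the 2275 genes that passed the filter. It passed only through its disome libraries, where it is high, so this rank is no support for a high ratio. It had 40 and 20 disome reads (1893 and 1064 RPM), against 11 and 13 monosome reads (41.1 and 56.4 RPM), a log2 fold change of 4.78 ± 0.42 (adjusted p = 6.1e-09). COX13, rich in histidine codons, had 27 and 14 disome reads (1278 and 745 RPM), against 80 and 74 monosome reads (299 and 321 RPM; 1.58 ± 0.34, adjusted p = 0.0013). ATP2, the catalytic β subunit, had 2082 and 2129 disome against 687 and 512 monosome RPM (1.65 ± 0.27, adjusted p = 7.3e-05). The disome and monosome libraries of COX13 and ATP2 did not overlap, nor did those of COX4, for which the filter fixed this in advance. Spearman's rho between this ratio and histidine codons per 100 codons was 0.30 over the 28 members and 0.02 over all 2275 genes, which share the same 4 libraries. Genes that end in a histidine codon had a median log2 fold change of -0.04 (61 genes), against -0.41 for the 2214 others in 3-AT. In rich medium the medians were -0.04 (64 genes) and -0.38 (3025 others). Other members with many histidine codons differed in 3-AT. QCR6 was called higher, whereas ATP17, the richest, and SDH1 were not called. With a library left out, ATP17 had 0.27 to 0.63 and SDH1 had -0.46 to 0.37. Of the other members that end in histidine, ATP14 was called lower and ATP20 was not called. The part of histidine codons in these ratios was not tested.

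ATP16, the δ subunit of the rotor, had 9 and 6 disome reads (426 and 319 RPM) against 78.4 and 82.4 monosome RPM (2.06 ± 0.55, adjusted p = 0.0066). The acidic subunit QCR6 had 6 and 5 (284 and 266 RPM) against 67.2 and 91.1 (1.65 ± 0.60, adjusted p = 0.039). ATP16 and QCR6, like COX4, passed the filter only through disome-seq, where they are high, so the count of members higher rests in part on the filter. ATP5, which joins the stalk to the catalytic head, had 17 and 10 (804 and 532 RPM) against 239 and 229.9 (1.37 ± 0.39, adjusted p = 0.011). ATP4 and ATP14, with their many monosome footprints, were among the members lower in disome-seq. ATP4 had 3 and 5 disome reads (142 and 266 RPM) against 296 and 289 monosome reads (-2.69 ± 0.44, adjusted p = 5.2e-05) and ATP14 had 8 and 11 (379 and 585 RPM) against 321 and 212 (-1.31 ± 0.37, adjusted p = 0.012). The others rested on few disome reads: QCR9 had 2 and 0 (ratio to monosome RPM 0.117, 95% counting interval 0.0140 to 0.427), ATP3 0 and 2 (0.210, 0.0251 to 0.775), SDH4 1 and 2 (0.215, 0.0440 to 0.640), COX9 3 and 1 (log2 fold change -2.49 ± 0.59) and COR1 3 and 7 (-1.47 ± 0.49), with adjusted p-values of 0.0047, 0.042, 0.015, 0.0029 and 0.027 in that order. Of these, QCR9, ATP3, SDH4 and COX9 passed the filter only through monosome-seq, where they are high. The count of members lower thus also rests in part on the filter. COX4, ATP2 and ATP4 were the 3 of 13 calls that held with each library left out. Replicate 1 of 3-AT disome-seq decided 8 calls, which were lost without it: COX13 (0.97), ATP5 (0.88), QCR6 (1.46), ATP16 (1.69), ATP14 (-1.16), COR1 (-1.05), ATP3 (-1.45) and SDH4 (-2.0). Without replicate 2 COX9 (-1.98), QCR9 (-2.31), COR1 (-2.28), SDH4 (-3.0) and QCR6 (1.71) were lost, and COR1 was also lost without replicate 1 of monosome-seq (-1.44) and ATP5 without either monosome library (1.14 and 1.06). By tool and filter, 5 of the 13 calls held in all 6 other settings: COX4, ATP2, ATP4, COX9 and QCR9. DESeq2 did not call QCR6, ATP3, SDH4 or COR1. Limma voom did not call QCR6, ATP3, COX13, ATP5, ATP16, ATP14 or COR1. QCR6 was also lost without the filter.

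In rich medium 32 members passed the filter and 3 were higher in disome-seq, against 9.03% of 3089 genes, a like share. With a library left out, 92 to 202 genes were higher in place of 279, and 1 to 3 members. No member was called lower by edgeR, against 9.42% of genes (18.5% were called in all). Of the members 2 were lower at an unadjusted p below 0.05, and DESeq2 called 0 and limma voom 1. The median log2 fold change was 0.00 for the members and -0.37 for all genes. ATP2 had 50 and 40 disome reads (1055 and 1153 RPM), against 412 and 463 monosome RPM (1.59 ± 0.21, adjusted p = 5e-13), close to its ratio in 3-AT, and held with each library left out. COX12, a peripheral subunit of cytochrome c oxidase, had 8 and 5 disome reads (169 and 144 RPM) against 13 and 18 monosome reads (16.2 and 29.7 RPM; 3.09 ± 0.61, adjusted p = 9.9e-06), and had 0 disome reads in both 3-AT libraries. COX12 passed the filter in rich medium only through disome-seq, where it is high. ATP7, a stalk subunit, had 13 and 2 (274 and 57.6 RPM) against 43 and 38 (53.7 and 62.6 RPM; 1.92 ± 0.54, adjusted p = 0.0039). Without replicate 1 of rich-medium disome-seq the log2 fold change of ATP7 was 0.05 and that of COX12 was 2.74, neither called, and ATP7 was also lost without either monosome library (1.71 and 1.93).

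**Figure D4:**
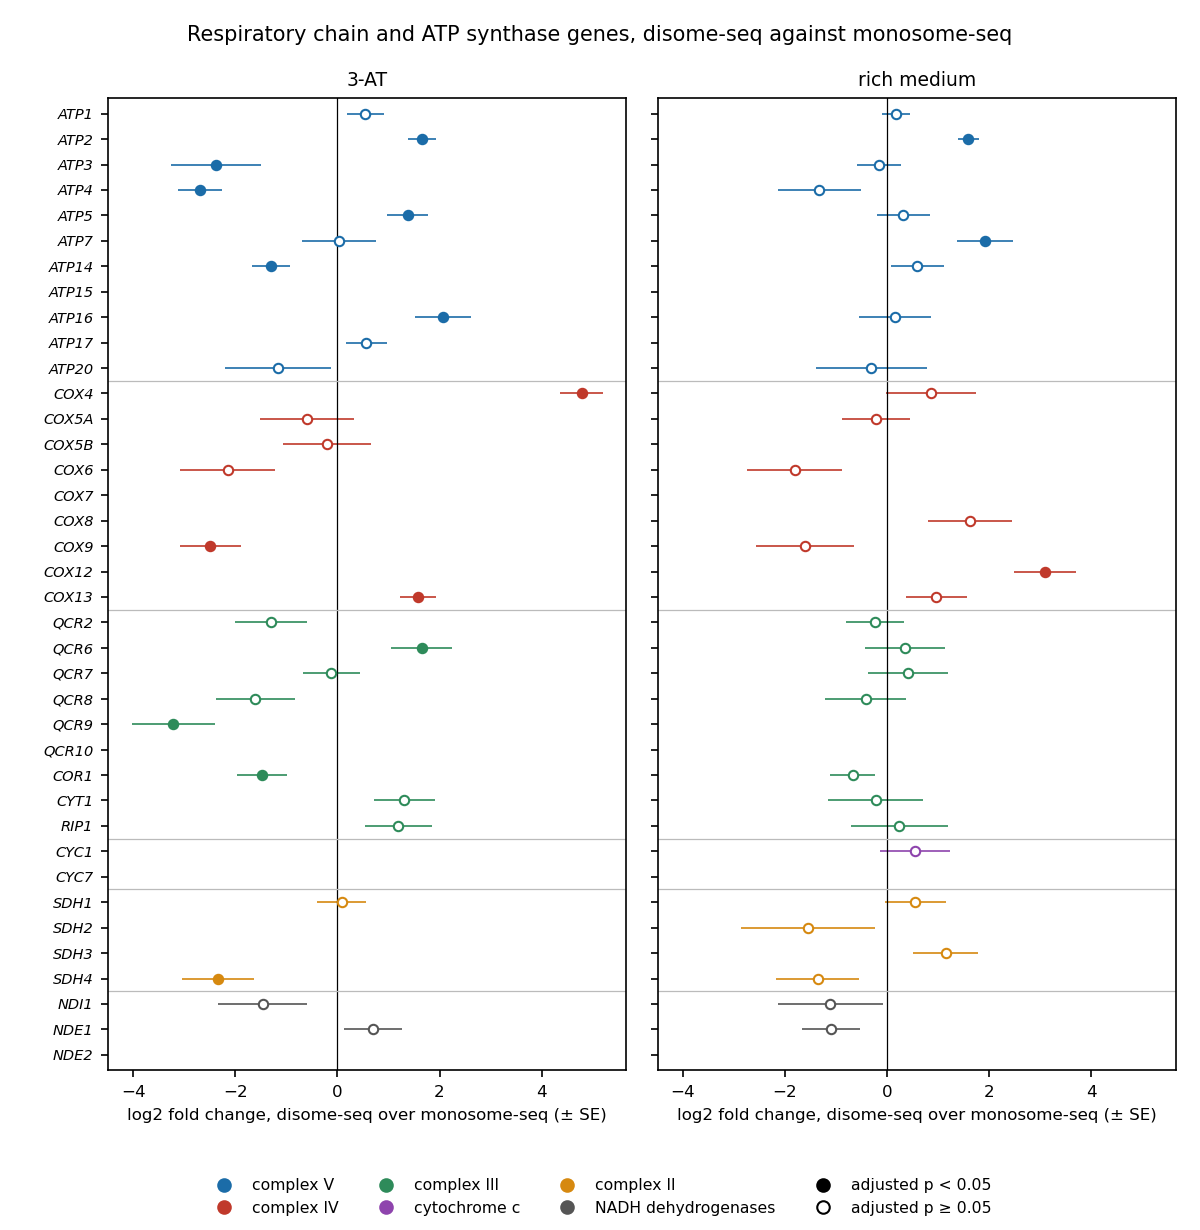
Disome-to-monosome log2 ratio in 3-AT (left) and rich medium (right) for each member that passed the filter and had disome reads, with bars for 1 SE, 2 libraries per group and filled points where the adjusted p was below 0.05. COX4 stands at 4.78 in 3-AT and at 0.86 in rich medium, and ATP2 is called in both panels.

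For the paralog pairs disome-seq gave little. In 3-AT NDE1 had 4 and 7 reads (0.70 ± 0.57, adjusted p = 0.37) and NDE2 3 and 1, CYC1 had 0 and 0 and CYC7 0 and 1, and COX5A had 3 and 0 (-0.59 ± 0.92, adjusted p = 0.67) and COX5B 4 and 0 (-0.21 ± 0.86, adjusted p = 0.88). In rich medium the reads were 1 and 5 for NDE1, 0 and 0 for NDE2, 3 and 4 for CYC1, 1 and 0 for CYC7, 3 and 3 for COX5A and 0 and 0 for COX5B, and none of the pairs' tested genes passed the threshold. ATP15 had 0 disome reads in all 4 libraries, and a count of 0 allows up to 3. The members that missed the filter in 3-AT were ATP15, COX7, COX8, COX12, QCR10, CYC1, CYC7, SDH2, SDH3 and NDE2, with 0 to 3 disome reads per library, and in rich medium they were ATP17, COX5B, COX7, QCR10, CYC7 and NDE2, with 0 to 2.

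Disome footprints were also compared directly between the conditions, where 7 members passed the filter on low counts and the other 31, with 0 to 13 reads per library, did not. The 4 genes called, and ATP14, passed only through the 3-AT libraries, where they are high. Neither rich-medium library reached the minimum of 358 RPM for them, and the count of calls is no support for a direction of the members. Of the 7, 4 were higher in 3-AT, against 37.0% of 624 genes (80.1% in either direction), and 0 were lower by edgeR, at an unadjusted p below 0.05 and by DESeq2, against 43.1% of genes. COX4 had 40 and 20 reads (1893 and 1064 RPM) in 3-AT, against 1 and 3 (21.1 and 86.4 RPM) in rich medium (4.20 ± 0.69, adjusted p = 1.6e-05), while its mRNA was 43.9 and 56.9 in 3-AT against 45.2 and 45.5 RPM in rich medium. ATP17 had 11 and 9 reads (521 and 479 RPM) in 3-AT against 0 and 1 in rich medium (ratio 41.1, 95% counting interval 6.58 to 1705, adjusted p = 6e-06), COX13 had 27 and 14 in 3-AT against 7 and 3 in rich medium (2.41 ± 0.58, adjusted p = 0.00083) and ATP5 had 17 and 10 in 3-AT against 5 and 6 in rich medium (1.67 ± 0.52, adjusted p = 0.0063). That the 3-AT libraries lay above the rich-medium libraries for each of the 4 genes was fixed in advance by the filter. ATP14 (1.07 ± 0.52), ATP2 (0.32 ± 0.38) and ATP1 (0.00 ± 0.51) did not pass the test. COX4 and COX13 held with each library left out, whereas ATP17 was lost without replicate 1 of rich medium (log2 fold change 3.28) and ATP5 in 3 fits (1.26, 1.62 and 1.69).

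The change of the disome-to-monosome ratio with 3-AT was tested as an interaction over the 8 disome and monosome libraries, where 31 members passed the filter and ATP15, COX7, COX8, QCR10, CYC7, SDH2 and NDE2 did not. COX4 was higher (3.51 ± 0.78, adjusted p = 0.00017), against 2.72% of 2871 genes, and ATP14 (-2.33 ± 0.67, adjusted p = 0.0057) and ATP7 (-2.30 ± 0.80, adjusted p = 0.028) were lower, against 14.8% (17.6% in all). The median over all genes was -0.77 in this fit and 0.04 with table totals alone, under which neither ATP7 nor ATP14 was called, while COX4 held in each fit with a library left out. COX4 passed the filter only through its 3-AT disome libraries, where it is high. ATP14 was lost without replicate 1 of rich-medium disome-seq (-1.57) or replicate 2 of rich-medium monosome-seq (-1.66), and ATP7 was lost in 5 of 8 fits (-2.25 to -0.65). Of the paralogs, COX5A (-0.79 ± 1.15) and NDE1 (1.38 ± 0.83) did not pass the test, and COX5B and CYC1 had no disome reads in 1 condition.

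The control library of transcripts that carried 2 ribosomes gives the position of each ribosome's A-site. It has no replicate, so it was compared with rich-medium monosome-seq as a description, and its marker genes went against its strain label, as given above. It held 2772 footprints on the members, 0.690% of 401686, against 0.345% and 0.372% in the monosome libraries. Over the 33 members with 10 or more footprints in both, the median log2 ratio of control to monosome RPM was 0.92, against -0.29 over 2469 genes. COX7, QCR6, CYC1, NDE1 and NDE2 are outside the 33. Across the 2469 genes the ratio fell with coding length (Spearman's rho -0.33), while across the 33 members rho was 0.01, a description over genes of the same libraries. COX7 had 126 footprints (314 RPM, 95% Wilson interval 263 to 373), against 7.49 and 3.30 RPM in monosome-seq, a log2 ratio of 5.86. That denominator is 6 and 2 reads, and the log2 ratio of the pooled reads had a 95% exact counting interval of 4.76 to 7.03. COX5B had 104 footprints (259 RPM, 214 to 314; log2 ratio 3.59), QCR10 had 47 (117 RPM, 88.0 to 156; 3.36) and ATP15 had 153 (381 RPM, 325 to 446; 3.18). These 4 genes are among the short members, the longest being COX5B with a coding length of 456 nt, but QCR6, of 444 nt, had 5 footprints, 2 of them beyond its stop codon (12.4 RPM, 5.32 to 29.1; -2.22). NDE1, the longest of the depleted members at 1683 nt, had 7 footprints (17.4 RPM, 8.44 to 36.0; -3.45, pooled counting interval -4.76 to -2.36) while NDE2 had 1. CYC1 had 7 (17.4 RPM; -2.03) and CYC7 had 17 (42.3 RPM, 26.4 to 67.8; 1.89), and COX5A had 14 (34.9 RPM, 20.8 to 58.5; -1.57).

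**Figure D5:**
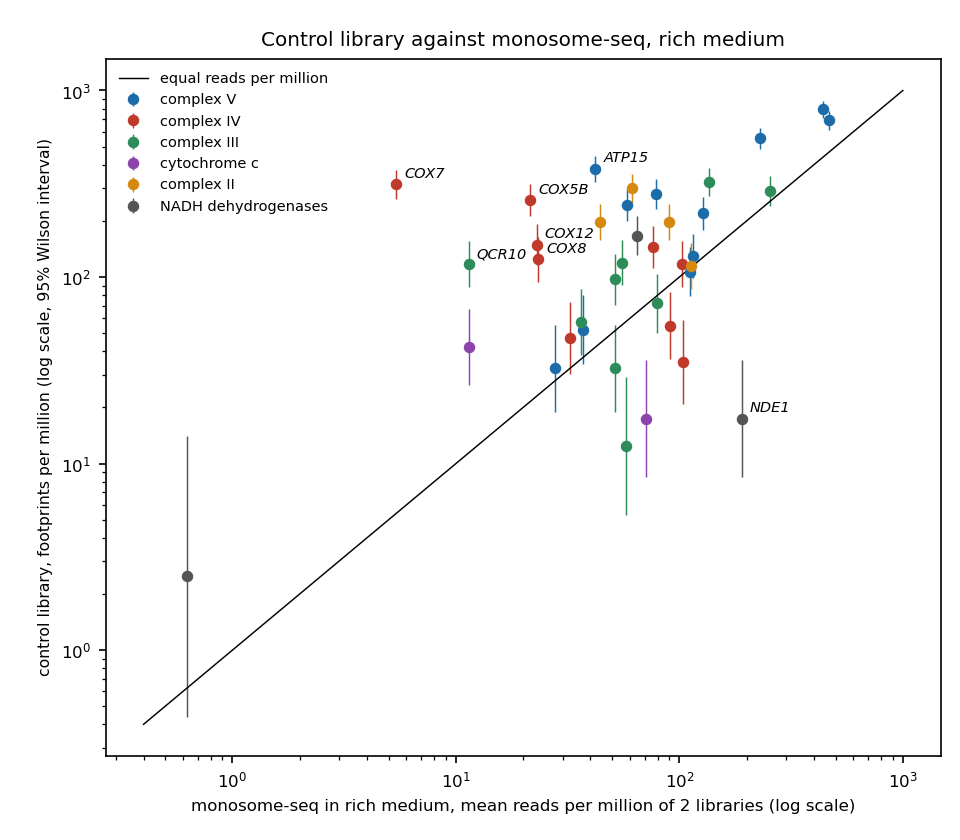
Footprints in RPM of each member in the single control library (vertical, 95% Wilson interval) against the mean RPM of the 2 rich-medium monosome libraries (horizontal), both on log scales, with colour by complex and the line of equal values. COX7, COX5B, QCR10 and ATP15 lie farthest above the line, at log2 ratios of 3.18 or more, and NDE1 lies farthest below it, at -3.45.

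In some members a single position took a large share of the control footprints. The genes given here were chosen after their values were seen. ATP2 had 65 of its 318 footprints (20.4%, 16.4 to 25.2%) with the A-site at codon 356 of its 511, an alanine codon that follows a proline codon. SDH3 had 34 of 120 (28.3%, 21.0 to 37.0%) at codon 80, a histidine codon that also follows a proline codon, and COX12 had 28 of 60 (46.7%, 34.6 to 59.1%) at codon 19, a proline codon. QCR10 had 20 of 47 (42.6%, 29.5 to 56.7%) at codon 67, and COX9 had 8 of 22 (36.4%, 19.7 to 57%) at its stop codon. The bases around the leading positions of ATP2, SDH3, COX12 and COX9 are shown from the R64 sequence, with the A-site codon in capitals.
ATP2, X:648627-648686, plus strand: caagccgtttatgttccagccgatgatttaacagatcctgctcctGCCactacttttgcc
SDH3, XI:179859-179918, plus strand: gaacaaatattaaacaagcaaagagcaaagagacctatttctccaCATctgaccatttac
COX12, XII:225104-225163, minus strand: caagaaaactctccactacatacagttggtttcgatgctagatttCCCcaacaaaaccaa
COX9, the last 48 bases of the gene, IV:334217-334264, minus strand: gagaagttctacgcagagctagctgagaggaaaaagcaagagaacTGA
In COX7, 125 of 126 footprints (99.2%) lay in the first 50 of its 60 codons, and in QCR8 28 of 29 lay there. The long genes SDH1, NDE1 and NDE2 had 0 footprints in that stretch, and a count of 0 allows up to 3. NDE1 had only 7 footprints in all and NDE2 had 1. Other long members had footprints there, with 22 of 278 for ATP1 and 69 of 318 for ATP2. The share of all control footprints that lay on members was 0.613% without positions in the first 50 codons, and 0.664% without the leading position of each gene.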

How the data were processed

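mRNA-seq, monosome-seq and disome-seq gave 2 libraries each per growth condition, and 1 further library held the control of transcripts that carried 2 ribosomes. Per the paper's methods and the submitters' processing notes, the authors trimmed reads with cutadapt 1.16, removed ribosomal RNA with Bowtie 1.2.2, aligned with TopHat2 2.1.1 to the yeast genome R64 and deposited whole-number counts of reads per gene, and for the control library counts per A-site position. Per the methods, reads with more than 1 alignment were dropped and PCR duplicates, recognised by length, sequence and molecular identifier, were counted a single time; the tables do not themselves record that step. Depth was 18790 to 47391 counts for disome-seq, 230583 to 800994 for monosome-seq, 544499 to 2836320 for mRNA-seq and 401686 for the control.

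Counts were tested in R 4.3.3 with edgeR 4.0.16 (quasi-likelihood F-test, TMM factors, filterByExpr by group) on all genes, with Benjamini-Hochberg adjustment over all genes tested and a threshold of 0.05. Each SE was derived from the log2 fold change and its F value. Ratios within a condition were 2-group contrasts, and changes of a ratio were interactions. The procedure was tested on simulated data, where the interaction over disome-seq recovered few of the changed genes and made more false calls than its nominal level. Alternatives were RLE factors, table totals alone, no filter, DESeq2 1.42.0, limma 3.58.1 voom with library weights, a replicate block and each library left out. The study calls the replicates biological, the labels do not say that they came from separate cultures, and p-values measure the spread between these libraries. Intervals are Wilson for the control, and exact (Clopper-Pearson) for ratios with 1 to 3 reads in a group.

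The rule for the members uses gene names alone, but it and the other lists were chosen with earlier results of these data known. The members past the threshold were named, at most 8 per direction in full, with the paralog pairs in each comparison. Sequence features came from the RefSeq copy of R64 with Python 3.11.15, and 5676 of the 5681 gene names were paired with it.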

Additional observations from a re-analysis of the deposited data

Results flagged for a closer look

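The growth conditions differed, by a test of the difference itself, in the ratios of 14 members. For the monosome-to-mRNA ratio these were 12 of 38 members, against 28.9% of all genes, and 6 of the 12 calls held with each library left out. For the disome-to-monosome ratio they were 3 of 31, against 17.6% of all genes, and COX4 alone held. The disome-to-monosome ratio of COX4 was higher in 3-AT by 3.51 on the log2 scale, and those of ATP7 (-2.30) and ATP14 (-2.33) were lower. The monosome-to-mRNA ratio was higher in 3-AT for ATP4 (2.93), ATP14 (2.69), ATP17 (2.37), QCR9 (1.24), NDI1 (1.00), SDH1 (0.99) and COX13 (0.70). It was lower for ATP1 (-1.15), QCR2 (-1.05), ATP20 (-1.04), SDH3 (-0.94) and SDH2 (-0.89). Strain, medium and 3-AT changed together, and their separate parts were not tested.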

How the results depend on the processing

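Another scaling, filter or tool changed several counts of members. With table totals alone, which shifted the median of all genes by 0.32 in mRNA-seq, 0.29 in monosome-seq, 0.61 in disome-seq and 0.83 in the change of the disome-to-monosome ratio, 1 member was lower in rich-medium disome-seq than in monosome-seq, 1 was lower in monosome-seq with 3-AT, 2 had a higher and 0 a lower disome-to-monosome ratio with 3-AT, and the monosome-to-mRNA ratio was higher for 7 members and lower for 13 in 3-AT and higher for 6 and lower for 14 in rich medium. The same scaling turned the sign of the mRNA change of ATP3 (0.27), of COR1 in the 3-AT ratio of monosome to mRNA (-0.083) and, in the rich-medium ratio, of ATP1 (-0.40), ATP3 (-0.28), ATP5 (-0.13), QCR7 (-0.47), SDH2 (-0.48), COX5A (-0.088) and CYT1 (-0.11). DESeq2 called 4 members lower in 3-AT disome-seq than in monosome-seq, 0 lower in monosome-seq with 3-AT, 8 higher and 2 lower in the 3-AT ratio of monosome to mRNA, 2 lower in the rich-medium ratio, 3 lower in its change and 1 lower in the change of the disome-to-monosome ratio. Limma voom called 2 members higher and 4 lower in 3-AT disome-seq than in monosome-seq, 1 lower in rich medium, 2 lower in the rich-medium ratio of monosome to mRNA, 3 lower in its change and 1 lower in the change of the disome-to-monosome ratio. RLE factors left 1 member lower in that change, and without the filter 1 member was lower in disome-seq with 3-AT. For 3-AT against rich medium, DESeq2 called 22 members higher and 2 lower in mRNA-seq, and 16 higher in monosome-seq. The share of control footprints on members was 0.613% without the first 50 codons and 0.664% without the leading position of each gene. The causes of these shifts were not tested.

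With a library left out, members called higher and lower numbered 2 to 5 and 3 to 5 for disome against monosome in 3-AT, 1 to 3 and 0 in rich medium, 23 to 28 and 2 to 4 for mRNA, 17 to 19 and 1 to 3 for monosome-seq, 2 to 3 and 0 for disome-seq with 3-AT, 1 and 0 to 3 for the change of the disome-to-monosome ratio, 9 to 15 and 4 to 6 for monosome against mRNA in 3-AT, 11 to 16 and 2 to 3 in rich medium, and 5 to 7 and 2 to 5 for its change. Over all genes, disome against monosome in rich medium gave 279 higher and 291 lower by edgeR, 511 lower with table totals, 144 lower by DESeq2, and 147 higher and 166 lower by voom. With a library left out these were 92 to 202 higher and 61 to 181 lower. In 3-AT it gave 259 higher and 459 lower, against 108 higher by voom and 230 lower by DESeq2, and 66 to 170 higher and 157 to 213 lower with a library left out. Monosome-seq gave 1322 genes lower in 3-AT (871 by DESeq2) and disome-seq 269 (520 without the filter). The change of the disome-to-monosome ratio gave 78 genes higher (191 with totals, 46 without the filter) and 426 lower (273 with RLE factors, 182 with totals, 231 by DESeq2), and 36 to 113 higher and 179 to 371 lower with a library left out. Monosome against mRNA gave 1186 higher and 1228 lower in 3-AT (698 and 2184 with totals, 502 lower by DESeq2), 1323 and 1314 in rich medium (427 and 3135 with totals, 559 lower by DESeq2, 874 to 1120 lower with a library left out), and 870 higher for its change (566 by DESeq2). Same-numbered replicates did not deviate together (Pearson's r between -0.15 and 0.10), and the replicate block weakened 4 of 279 member values (ATP3 and QCR6 in disome against monosome with 3-AT, QCR2 in monosome-seq and COX8 in the 3-AT ratio of monosome to mRNA) and lowered the genes called lower in disome against monosome in rich medium to 185. Disome depth, with a median of 2 or 3 reads per member, limits every disome value.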
